A study of Mus musculus with 6 samples.

Results

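Leydig cells are the androgen-producing cells of the testis interstitium, and they made up 844 of the 46495 single-cell transcriptomes of this series (1.82%). A cell was counted as Leydig where the deposited fine annotation gave it that class, 1 of 17. All 844 also lay in the deposited broad class Leydig. The cells came from testes of adult C57BL6 mice of 2 genotypes, named NONO deltaER and NONO, that had been digested with enzymes and loaded on the 10x Genomics 3′ v2 system. This system counts captured transcripts near their 3′ end by unique molecular identifiers (UMI). NONO deltaER was represented by 3 libraries, TD, TE and TF, and NONO by TA, TB and TC. NONO is a nuclear protein of paraspeckles that binds RNA and DNA, and the sources used here do not say what the deltaER alteration changes in it. The cell table names the groups KI and WT, which were read as NONO deltaER and NONO. If that reading is wrong, all directions below are reversed. Whether each library is a different animal is not stated, and a p-value here therefore reflects only how much libraries vary, which may be technical.

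Leydig cells answer luteinizing hormone from the pituitary. Its receptor raises cyclic AMP, and cholesterol is then moved into mitochondria, where a cytochrome P450 shortens its side chain to give pregnenolone. Enzymes of the smooth endoplasmic reticulum convert pregnenolone to testosterone, which passes to the seminiferous tubules and to the blood.

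The Leydig class held 121, 67 and 158 cells in TD, TE and TF, and 187, 124 and 187 cells in TA, TB and TC. Their summed UMI were 315911, 188392 and 363789 in the NONO deltaER libraries and 566841, 306295 and 386722 in the NONO libraries. The median Leydig cell had 1868.5 UMI and 1129 genes. No barcode was shared between Leydig cells of different libraries, while 37 Leydig cells carried a barcode that also occurred in some class of another library. Over all classes, the libraries had between 6261 and 8909 cells and between 81042216 and 110018960 UMI, and 650 barcodes occurred in more than 1 library. Levels below are CPM: counts of a gene in the summed Leydig cells of a library, brought to the same total in every library. Capture near the 3′ end differs between genes, so CPM are compared for the same gene or list between classes and libraries.

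The markers of the class were found where the label puts them. The 4 measured markers Cyp17a1, Cyp11a1, Star and Hsd3b1 were each highest in the Leydig class, and their summed level there was 8767 CPM. The same sum was 33.4 CPM in Sertoli cells, 53.7 in myoid cells, 62.9 in macrophages and 106 in the class named Unknown. The marker Insl3 was not analysed here. In single cells, a UMI of Cyp17a1 was found in 73.9% of Leydig cells, against 0.477% of Sertoli cells, which should lack the gene. The median depths were 1868.5 UMI in Leydig cells and 1836 in Sertoli cells. After thinning each cell to 1000 UMI the shares were 70.4% of 675 Leydig cells and 0.248% of 1209 Sertoli cells. The single cells were not all alike. Of the 844 cells, 527 (62.4%) had a UMI of at least 3 of the 5 genes Cyp17a1, Cyp11a1, Star, Hsd3b1 and Hsd3b6, 231 had all 5, and 66 (7.82%) had none.

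The genes that set the class apart were those of steroid synthesis, of lipid and xenobiotic handling, and a group of secreted proteins. Of 2041 genes with a mean Leydig level of at least 100 CPM, 292 were higher in Leydig than in each of the other 16 classes. For 139 genes (6.81%) the level was over 2 times that of the next class, for 51 (2.5%) over 5 times and for 25 (1.22%) over 10 times. The class was defined on these same cells, so these ratios describe it and carry no test. For the 25 genes over 10 times, the class with the next level was Unknown for 15, macrophages for 5, myoid cells for 4 and Sertoli cells for 1.

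**Figure D1:**
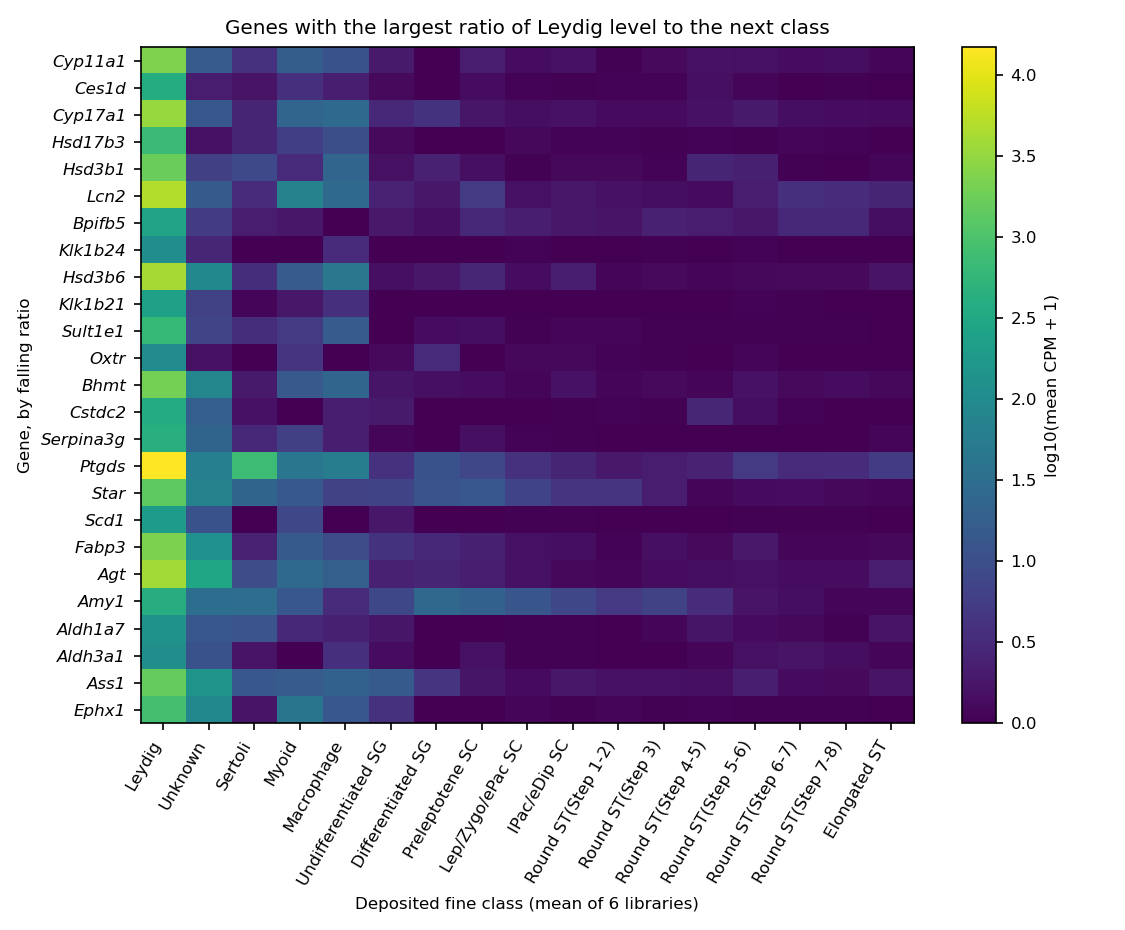
Level of the 25 genes with the largest ratio of the Leydig level to the next class, as log10(mean CPM + 1) over 6 libraries (colour), in the 17 deposited classes (columns). The Leydig column is brightest in every row, while the class Unknown, the next for 15 of the 25 genes, shows a weaker signal, and Ptgds is also visible in Sertoli cells.

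Steroidogenic enzymes led the list. Cyp11a1, the mitochondrial P450 that cuts the cholesterol side chain, averaged 2334 ± 683 CPM in Leydig cells (SD over 6 libraries), against 16.02 CPM in myoid cells, the next class, a ratio of 146. Cyp17a1, the hydroxylase and lyase that turns progestins into androgens, averaged 3394 ± 858 CPM against 25.5 CPM in macrophages, a ratio of 133. Hsd17b3, which reduces androstenedione to testosterone, had a ratio of 78.4, and the hydroxysteroid dehydrogenases Hsd3b1 and Hsd3b6 had ratios of 76.2 and 46.1. Star, the protein that carries cholesterol to the inner mitochondrial membrane, averaged 1373 ± 572 CPM against 73.7 CPM in the class Unknown, a ratio of 18.6. Sult1e1, an estrogen sulfotransferase, had a ratio of 39.9. Hsd3b1 and Hsd3b6 shared no stretch of 50 bases in the last 400 bases of their transcripts, where the reads start, while Hsd3b6 shared 13.1% of such stretches with Hsd3b2 and 13.4% with Hsd3b3. Cyp11a1 lies at chr9:58006411-58027023, Cyp17a1 at chr19:46667165-46673172, Star at chr8:25806555-25815982 and Hsd3b1 at chr3:98852194-98859794 of mm10.

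Other genes of the list act on lipids, foreign compounds and amino acids. Ces1d, a carboxylesterase, averaged 375 ± 111 CPM in Leydig cells against 2.80 CPM in myoid cells, a ratio of 134. Scd1, a fatty acid desaturase, had a ratio of 18.6, and Fabp3, a fatty acid carrier, 17.4. Ephx1, an epoxide hydrolase, stood at 10.1 times the next class and the aldehyde dehydrogenases Aldh1a7 and Aldh3a1 at 11.1 and 10.9 times. Bhmt, which remethylates homocysteine from betaine, averaged 2004 ± 429 CPM against 82.7 CPM in the class Unknown, a ratio of 24.2. Ass1, an enzyme of arginine synthesis, had a ratio of 10.5 and Amy1, an amylase, 12.7.

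Secreted proteins formed a further group. Lcn2, a lipocalin that binds iron carriers of bacteria, averaged 4869 ± 2083 CPM in Leydig cells against 73.1 CPM in myoid cells, a ratio of 66.6. Ptgds, a lipocalin that makes prostaglandin D, averaged 14827 ± 4351 CPM against 727 CPM in Sertoli cells, a ratio of 20.4. Agt, the precursor of angiotensin, had a ratio of 13.2, Serpina3g, a serpin, 20.6, and Bpifb5 59.9. The kallikreins Klk1b24 and Klk1b21, serine proteases of a mouse multigene family, had ratios of 49.2 and 42.9. They shared 18.2% of the stretches of 50 bases in their last 400 transcript bases, so that the counting could split reads between family members, and their single levels are uncertain. Oxtr, the receptor of oxytocin, had a ratio of 31.02.

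NR5A1 is the nuclear receptor that drives steroidogenic genes. Its own transcript was 91.9 ± 38.1 CPM in NONO deltaER and 74.4 ± 24.4 CPM in NONO Leydig cells (SD, n = 3 each), and 59.1 CPM in Sertoli cells, which also use this factor. Binding sites of this kind hold the letters CAAGGNCA, and these were searched on both strands (TGNCCTTG on the reverse strand) in the 250 bases before each start site. The RefSeq promoter windows of build GRCm38.p6 covered 20 of the 25 genes, and 4 of these 20 held a match, against 1711 of 27025 genes with a window (6.33%). The 5 genes without a window were Ces1d, Cyp17a1, Star, Scd1 and Aldh3a1. The windows with a match are shown because they belong to genes set apart in the class, and Hsd3b1, a marker of the class, is shown as one with no match in this window. Each runs 5′ to 3′ on the strand of its gene and ends at the base before the start site, and capitals mark the matches.
Klk1b24: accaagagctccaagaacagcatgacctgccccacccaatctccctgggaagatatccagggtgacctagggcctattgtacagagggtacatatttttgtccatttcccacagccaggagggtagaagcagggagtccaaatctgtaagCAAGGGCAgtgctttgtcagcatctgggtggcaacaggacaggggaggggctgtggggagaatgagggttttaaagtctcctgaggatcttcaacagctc
Klk1b21: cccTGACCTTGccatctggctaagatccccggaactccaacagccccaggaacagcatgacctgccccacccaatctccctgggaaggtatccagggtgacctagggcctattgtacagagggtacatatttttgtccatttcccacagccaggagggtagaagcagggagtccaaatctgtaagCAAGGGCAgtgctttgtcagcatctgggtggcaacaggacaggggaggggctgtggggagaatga
Bhmt: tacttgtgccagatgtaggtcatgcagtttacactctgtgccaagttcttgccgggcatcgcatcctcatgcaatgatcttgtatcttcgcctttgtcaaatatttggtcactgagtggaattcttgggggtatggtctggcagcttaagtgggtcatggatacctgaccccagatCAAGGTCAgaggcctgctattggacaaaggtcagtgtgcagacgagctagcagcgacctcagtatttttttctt
Agt: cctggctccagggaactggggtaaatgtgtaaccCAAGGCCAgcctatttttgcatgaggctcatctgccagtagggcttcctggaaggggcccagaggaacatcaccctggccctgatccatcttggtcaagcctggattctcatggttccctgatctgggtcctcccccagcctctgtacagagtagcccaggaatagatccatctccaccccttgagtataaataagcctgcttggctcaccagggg
Hsd3b1: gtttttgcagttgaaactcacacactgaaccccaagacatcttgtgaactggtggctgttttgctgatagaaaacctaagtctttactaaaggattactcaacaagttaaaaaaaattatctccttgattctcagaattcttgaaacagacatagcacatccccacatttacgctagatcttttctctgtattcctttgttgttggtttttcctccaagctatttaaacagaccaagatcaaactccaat
The windows are chr7:44187986-44188235 (plus strand) for Klk1b24, chr7:44102042-44102291 (plus) for Klk1b21, chr13:93637759-93638008 (minus) for Bhmt, chr8:124569707-124569956 (minus) for Agt and chr3:98859795-98860044 (minus) for Hsd3b1. The match starts 100 bases before the start site in Klk1b24, 74 in Bhmt and 216 in Agt. Klk1b21 held 2, one starting 65 bases before the start site and one 247 bases before it on the reverse strand. The Klk1b24 and Klk1b21 windows share an unbroken run of 162 bases, and the forward match of both lies in it, so these are 2 copies of one stretch. A match describes the letters in a window and says nothing about binding.

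Cholesterol synthesis genes were also often at their highest in the class. Of 23 such genes, 15 were higher in Leydig than in any other class, among them Tm7sf2, Msmo1 and Nsdhl, which act late in the pathway. The summed level of the 23 was 3167 CPM in Leydig cells, against 677 CPM in Sertoli cells, 703 in myoid cells, 497 in macrophages and 667 in the class Unknown. Of 33 measured genes of detoxification and redox defence 17 were highest in Leydig cells, such as Gstm1, a glutathione transferase, at 8056 ± 2585 CPM against 1483 CPM in the class Unknown. Prlr, the prolactin receptor, and Lhcgr, the receptor of luteinizing hormone, were highest in the class too. Lhcgr stood at 189 ± 44.7 CPM in NONO deltaER and 182 ± 80.1 CPM in NONO Leydig cells (SD, n = 3 each), against 19.9 CPM in the class Unknown.

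Markers of fetal Leydig cells and of other interstitial cells were low. The 6 fetal Leydig markers summed to 20.03 CPM, and Thbs2 and Crh among them had no UMI. Of the 6, 2 were highest in the Leydig class. Ren1 had 11.99 CPM (22 UMI) against 1.31 CPM in round spermatids of steps 4-5, the next class. Mc2r had 1.75 CPM (3 UMI) against 1.23 CPM in macrophages. Dlk1, a marker of fetal and immature cells, had no UMI in any Leydig cell, which allows up to 1.41 CPM over all Leydig UMI at 3 counts. Lymphocyte markers summed to 3.08 CPM, pericyte and vascular smooth muscle markers to 10.1, and endothelial markers to 43.1. Myh11, which defines smooth muscle and myoid cells, was at 10.0 CPM against 6399 CPM in myoid cells. Csf1r, which defines macrophages, was at 4.09 CPM against 2837 CPM in macrophages, and Wt1, a Sertoli gene, at 3.31 CPM against 390 CPM in Sertoli cells. Not every marker was this low. Of 19 Sertoli markers 12 were under 5% of their highest level in another class, while Clu, a secreted chaperone, was at 1147 CPM (37.7% of the Sertoli level), Ctsl, a lysosomal protease, at 293 CPM (15.3%) and Amhr2, the receptor of anti-Müllerian hormone, at 83.2 CPM (17.2%). Of 17 macrophage markers 15 were under 5%, the others being Aif1 at 438 CPM and Apoe at 297 CPM. Of 11 myoid markers 7 were under 5%, and Ptch1, the hedgehog receptor, was at 39.9% of the myoid level.

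RNA of spermatids was not low, in this class or in the other somatic classes. The 24 measured spermatid markers summed to 20458 CPM in Leydig cells and 52784 CPM in Sertoli cells. The sums were 24989 CPM in myoid cells, 12773 CPM in macrophages and 23453 CPM in the class Unknown. Prm2, which encodes a protamine that packs sperm DNA, was at 5882 ± 4139 CPM in the Leydig sums (SD over 6 libraries), against 111396 CPM in round spermatids of steps 7-8. In single Leydig cells the 24 measured spermatid markers held a median of 1.26% of the UMI, and the highest cell had 17.3%. Sertoli cells had a like median of 1.44%, while the medians were 0.211% in myoid cells, 0.123% in macrophages and 0.0885% in the class Unknown. The highest cell had 26.8% in Sertoli cells, 15.4% in myoid cells, 13.1% in macrophages and 19.2% in the class Unknown. Under 1% lay 410 Leydig cells (48.6%). Only 93 cells (11.02%) lay between 0.5% and 2%, and the quartiles of the share were 0.0432% and 4.25%, so most cells lay away from the limit. The limit by itself does not define a type. The 410 cells had a median of 2514 UMI and gave 1.98% of it to the 5 steroidogenic genes, and 384 of them (93.7%) had at least 3 of these genes. The other 434 cells had a median of 1370 UMI and a median share of 0.169%, and 143 of them (32.9%) had at least 3.

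Steroidogenic transcripts were concentrated in the cells with few spermatid transcripts. Cyp17a1 was at 5121 CPM in the sum of the 410 cells and at 1110 CPM in that of the 434 cells, and Ptgds was at 22757 and 5105 CPM. Prm2 was at 224 CPM in the 410 cells and 13461 CPM in the 434 cells. Malat1, a nuclear RNA, was at 58252 and 17040 CPM. Over the 844 cells the Spearman correlation of the spermatid share with the share of the 5 genes was -0.71, and within single libraries it lay between -0.55 and -0.76. Both are shares of the same UMI total, and cells of 1 library are not independent, so the value is a description. Whether the cells with many spermatid transcripts are Leydig cells with free RNA, doublets or other cells was not tested.

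**Figure D2:**
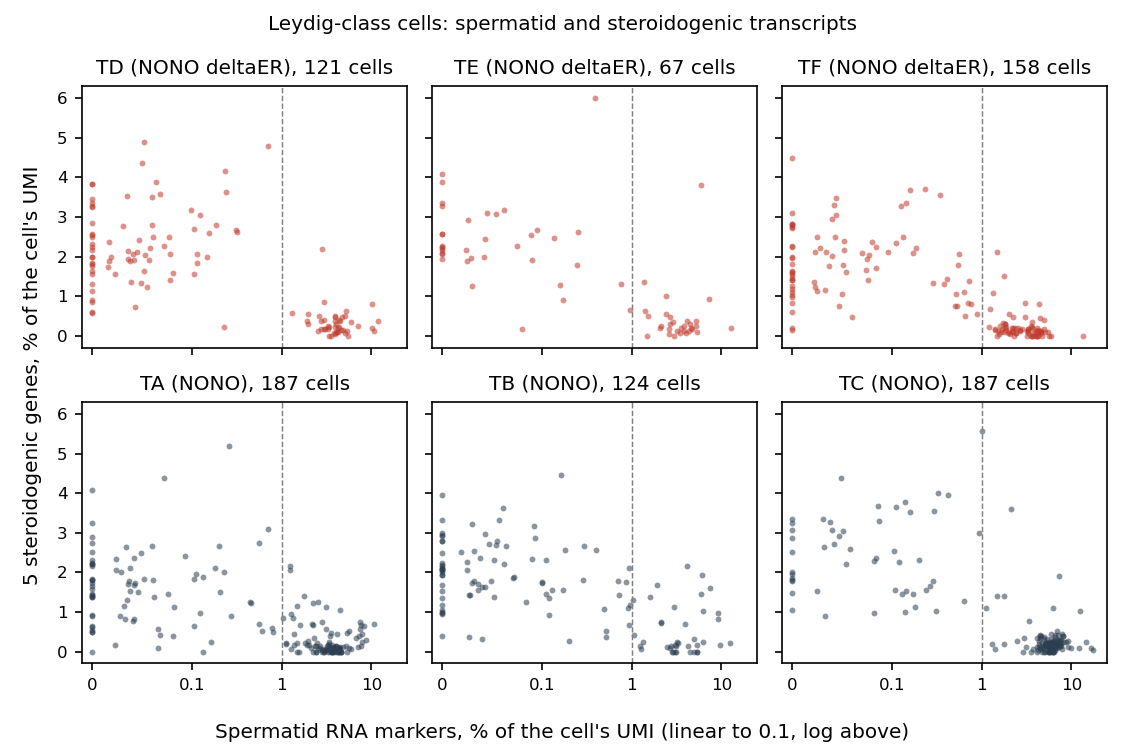
Each point is 1 Leydig cell, with the share of its UMI in 24 spermatid markers (x, linear to 0.1% and log above) and in 5 steroidogenic genes (y), in NONO deltaER libraries (top row) and NONO libraries (bottom row). The dashed line is at 1%. Cells rich in steroidogenic transcripts lie mostly left of it in all 6 libraries, and TC has the most crowded group to its right, with 50 of 187 cells under 1%.

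The libraries differed in this mixture. Under 1% spermatid RNA lay 75 of 121, 36 of 67 and 82 of 158 Leydig cells in TD, TE and TF, against 82 of 187, 85 of 124 and 50 of 187 in TA, TB and TC. The median spermatid share of a Leydig cell was 0.0991%, 0.388% and 0.711% in the NONO deltaER libraries and 1.48%, 0.101% and 5.32% in the NONO libraries. TC had the highest share and TD the lowest, with TB close to TD, so the genotypes overlapped.

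The share of Leydig cells among all cells, and among somatic cells, overlapped between the genotypes. Leydig cells were 1.72%, 1.07% and 1.92% of all cells in TD, TE and TF, and 2.099%, 1.46% and 2.47% in TA, TB and TC. The exact Clopper-Pearson 95% intervals were 1.43 to 2.06, 0.830 to 1.36 and 1.63 to 2.24% in the NONO deltaER libraries, and 1.81 to 2.42, 1.21 to 1.74 and 2.13 to 2.85% in the NONO libraries. They cover counting error only. The ranges overlapped, since TB lay below TD and TF. The means were 1.57 ± 0.444% in NONO deltaER and 2.01 ± 0.512% in NONO (SD, n = 3 each), a difference of -0.44 percentage points with a two-sided exact permutation p of 0.4. Of somatic cells alone the shares were 19.0%, 14.9% and 21.5% in NONO deltaER, against 22.5%, 19.9% and 30.2% in NONO (difference -5.76 points, exact permutation p = 0.2). Without the class Unknown among the somatic cells they were 20.6%, 16.1% and 26.5% in NONO deltaER and 27.7%, 28.5% and 32.2% in NONO. These did not overlap, and the difference of -8.42 points had an exact permutation p of 0.1. The smallest p that 3 against 3 allows is 0.1, so no such comparison could pass 0.05.

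Leydig cells of NONO deltaER had fewer UMI in the median, within the spread of the libraries. The medians were 2012, 1416 and 1644 UMI in TD, TE and TF and 2370, 2159 and 1691 UMI in TA, TB and TC. TD lay above TC, and the difference of -383 UMI had an exact permutation p of 0.2. Among cells with at least 1000 UMI the difference was -8.33 UMI (exact permutation p = 1). Median genes per cell were 1096, 897 and 1112 in NONO deltaER and 1372, 1148.5 and 1063 in NONO, a difference of -160 with an exact permutation p of 0.3. With each cell thinned to 1000 UMI the medians were 616, 639 and 711.5 genes in NONO deltaER and 681, 643 and 727.5 genes in NONO, a difference of -28.3 (exact permutation p = 0.5). Adjusted over the 4 comparisons of shares and medians in all cells, with the class Unknown counted as somatic and no thinning, each p was 0.4. Fewer cells captured and fewer cells in the testis cannot be told apart in such shares.

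No gene differed between the genotypes in Leydig cells by the test. The UMI of the class were summed per library and compared by the quasi-likelihood test of edgeR, with Benjamini-Hochberg adjustment over all genes tested. Of 6087 genes 0 passed an adjusted p of 0.05 (0%), and the lowest adjusted p was 0.244. At an unadjusted p under 0.05 there were 37 genes higher in NONO deltaER (0.608%) and 165 lower (2.71%). DESeq2 called 1 gene, Prm2. For 221 genes (3.63%) all 3 NONO deltaER libraries lay above all 3 NONO libraries, and for 234 (3.84%) below them. The median log2 fold change over all genes tested was 0.02, with 3146 above 0 and 2941 below. It was 0.15 over the 1144 genes that were not higher in any germ cell class than in Leydig cells. Over the 4943 genes that were, it was -0.015. Counts and medians of the lists below are to be read beside these values.

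The steroid pathway was measured at like levels in both genotypes, relative to a wide spread between libraries. Of 23 genes of steroidogenesis 21 were measured and 15 tested, of which 0 passed. Of these 15, 12 had a log2 fold change above 0 and 3 below, with a median of 0.23, and the genotypes did not overlap for 1, Fdxr. All tested genes not higher in a germ cell class had a median of 0.15. The summed level of the list was 24304, 18828 and 16221 CPM in TD, TE and TF, and 14838, 22857 and 13764 CPM in TA, TB and TC. TB lay among the NONO deltaER libraries, and TA and TC lay below all of them.

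At each single step the highest NONO library was TB. Star had 2181, 1438 and 1001 CPM in the NONO deltaER libraries, against 755, 1907 and 957 CPM in the NONO libraries. The highest value was in TD, the next in TB, and the log2 fold change was 0.36 ± 0.46 (SE; edgeR adjusted p = 1.00). Cyp11a1 had 2843, 2516 and 2238 CPM in NONO deltaER and 1374, 3239 and 1792 CPM in NONO, a log2 fold change of 0.23 ± 0.43. Here TB was above, and TA and TC below, all 3 NONO deltaER libraries. Cyp17a1 had 4109, 3355 and 3037 CPM in NONO deltaER, against 2479, 4698 and 2687 CPM in NONO, again with TB on top (log2 fold change 0.08 ± 0.43). Hsd3b6 had 5926, 4857 and 3354 CPM in NONO deltaER and 3475, 4022 and 2909 CPM in NONO, with TF below TA and TB (0.45 ± 0.42). For Hsd3b1 the values were 2304, 1407 and 1141 CPM in NONO deltaER and 1383, 2387 and 1378 CPM in NONO, and its log2 fold change of -0.07 was 1 of the 3 below 0. Fdxr, a reductase in the electron supply of Cyp11a1, had 275, 303 and 294 CPM in NONO deltaER and 251, 264 and 134 CPM in NONO. All 3 NONO deltaER libraries were above all 3 NONO libraries, by a log2 fold change of 0.41 with an unadjusted p of 0.266.

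**Figure D3:**
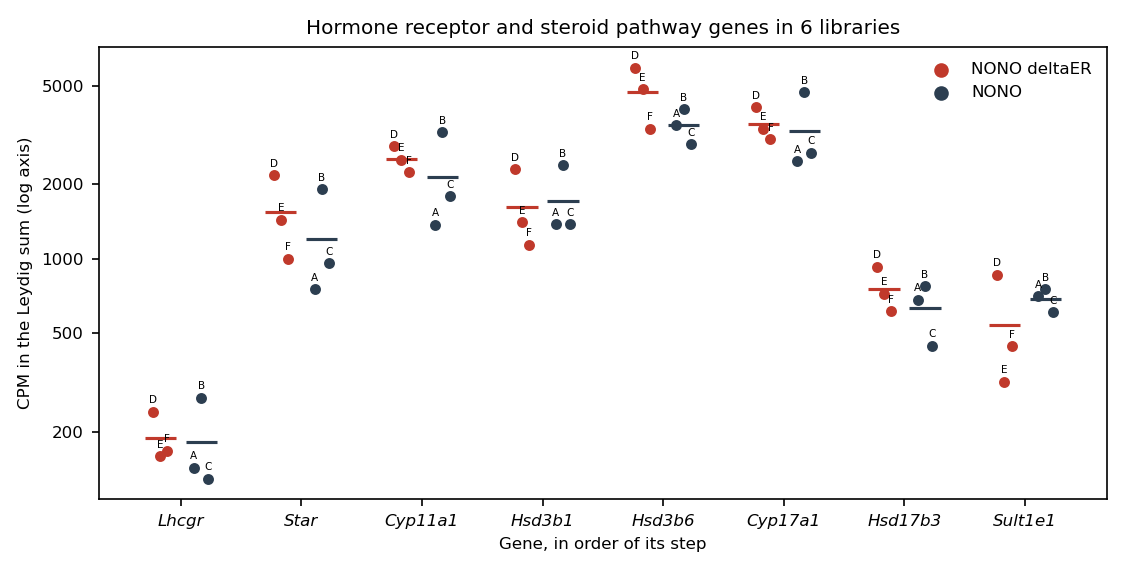
CPM (log axis) of the luteinizing hormone receptor and of steroid pathway genes in the Leydig sums of libraries TD, TE and TF of NONO deltaER (red) and TA, TB and TC of NONO (dark), with the library letter beside each point and bars at the group means. The genotypes overlap for all 8 genes, and TB is the highest NONO library for each.

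Of the 25 genes that set the class apart, 7 belong to the steroidogenesis list above and 18 do not. Of these 18, 0 passed, 14 had a log2 fold change above 0 and 4 below, and the genotypes overlapped for each. The median was 0.24, and the range was -0.11 for Aldh1a7 to 0.66 for Cstdc2, a cystatin-like gene, with standard errors between 0.34 and 0.54. Lcn2 had 8632, 5791 and 2906 CPM in NONO deltaER, against 3802, 4440 and 3646 CPM in NONO. TD and TE were above all NONO libraries and TF below them. Ptgds had 19518, 13175 and 11067 CPM in NONO deltaER and 13566, 20928 and 10705 CPM in NONO, with TB on top and TC lowest.

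Pathways around steroid synthesis also had 0 genes past the threshold. Cholesterol synthesis had 20 tested genes, 11 above 0 and 9 below, with a median of 0.09. Cholesterol uptake, storage and transport had 10, with 6 above 0 and a median of 0.14. For the hormone receptor and cyclic AMP list 18 genes were tested and 14 were above 0 (median 0.14). Creb1, a transcription factor that cyclic AMP activates, had 50.6, 69.0 and 57.7 CPM in NONO deltaER and 40.6, 32.6 and 20.7 CPM in NONO, without overlap, at an unadjusted p of 0.0484. The 2 genes of this list without overlap in the other direction, Prkar2a and Akap1, encode a regulatory subunit of protein kinase A and an anchor of it. Both were far higher in round spermatids of steps 7-8, at 3028 and 1935 CPM, than in Leydig cells.

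Transcription factors of Leydig cells were likewise spread around 0, with 8 of 15 tested above it. Nr5a1 had a log2 fold change of 0.32 and Gata4, a zinc finger factor of gonadal somatic cells, 0.17. Esr1, the estrogen receptor alpha, was the 1 gene of the list whose libraries did not overlap, with 355, 234 and 253 CPM in NONO deltaER and 180, 215 and 134 CPM in NONO. Its log2 fold change was 0.68 ± 0.36, with an edgeR adjusted p of 1.00. Nono itself had 88.6, 95.5 and 93.5 CPM in NONO deltaER and 77.6, 118 and 46.5 CPM in NONO, and a tag at its 3′ end does not check the genotype. Among its partners of the paraspeckle, Sfpq had a log2 fold change of -0.15, Pspc1 -0.27 and the RNA Neat1 0.35. Of 16 tested genes of that list 7 were above 0.

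The genes highest by the size and agreement of their difference in NONO deltaER were of mixed function. With at least 100 CPM in the mean and no overlap of the libraries, the 12 with the lowest p were Pgbd5, Tead1, Kcnma1, Creb3l2, Trp53i11, Auts2, Esr1, Fbxl17, Sv2c, Smoc1, Birc6 and Cped1. Pgbd5, a gene derived from a transposase, had 266, 260 and 146 CPM in NONO deltaER, against 65.3, 131 and 114 CPM in NONO. The log2 fold change was 1.13 ± 0.40 with an edgeR adjusted p of 1.00. Tead1, a transcription factor of the Hippo pathway, had 184, 228 and 126 CPM in NONO deltaER and 81.2, 108 and 69.8 CPM in NONO (1.04 ± 0.37). Kcnma1, a potassium channel opened by calcium, had 165, 170 and 121 CPM in NONO deltaER and 61.8, 81.6 and 82.7 CPM in NONO (1.01 ± 0.36). Creb3l2, a transcription factor held in the endoplasmic reticulum, had 165, 154 and 124 CPM in NONO deltaER and 90.0, 78.4 and 69.8 CPM in NONO (0.88 ± 0.35). For the other 8 the log2 fold change was between 0.63 and 0.76. Only Auts2, Fbxl17 and Birc6 of the 12 were higher in some germ cell class than in Leydig cells.

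The genes lowest in NONO deltaER by the same rule were each higher in a class of spermatids than in Leydig cells. The 12 were Prm1, Ubqlnl, 1700016H13Rik, Iqcf1, Prm2, Prkar2a, 1700001C19Rik, Fam71f2, Spata18, Paqr5, Pwwp2b and Knstrn. Prm1, a protamine, had 53.8, 53.1 and 54.98 CPM in NONO deltaER, against 210, 140 and 191 CPM in NONO, a log2 fold change of -1.74 ± 0.36 (edgeR adjusted p = 0.285). Prm2 had 2520, 3190 and 2301 CPM in NONO deltaER and 7570, 6703 and 13007 CPM in NONO, a log2 fold change of -1.77 ± 0.44 (edgeR adjusted p = 0.478). Ubqlnl, a ubiquilin-like gene, had 76.0, 63.7 and 63.2 CPM in NONO deltaER, against 182, 170 and 367 CPM in NONO (-1.82 ± 0.40). Spata18, a gene of spermatogenesis, had 127, 207 and 220 CPM in NONO deltaER and 423, 379 and 608 CPM in NONO (-1.37 ± 0.36). Of the 50 genes with the lowest p over the whole table, 48 were lower in NONO deltaER and 48 were higher in a germ cell class than in Leydig cells, as were 4943 of the 6087 genes tested (81.2%).

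**Figure D4:**
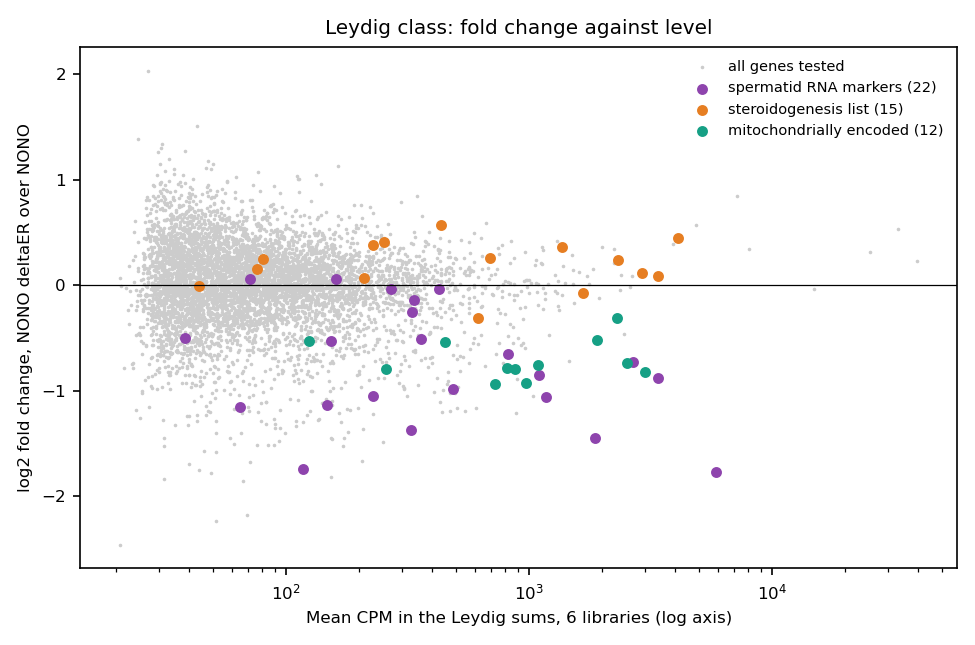
Log2 fold change of NONO deltaER over NONO against the mean CPM of the 6 Leydig sums (log axis), 1 point per gene tested. The 22 spermatid markers (purple) and 12 mitochondrially encoded genes (green) lie mostly or wholly below 0, and 12 of the 15 steroidogenesis genes (orange) above it, with none past the threshold.

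Spermatid markers as a list had a lower sum in every NONO deltaER library, though no member passed the test. Of 22 tested, 20 had a log2 fold change below 0 (median -0.79), 8 had an unadjusted p under 0.05 and 6 did not overlap. The summed level was 11491, 15749 and 12290 CPM in TD, TE and TF, against 22391, 18502 and 42328 CPM in TA, TB and TC. All NONO libraries were above all NONO deltaER libraries. In myoid cells the same sum also did not overlap, with 25705, 15814 and 19672 CPM in NONO deltaER and 32427, 27542 and 28777 CPM in NONO, while in Sertoli cells, macrophages and the class Unknown it did. The median spermatid share of single Leydig cells, given above, overlapped between the genotypes. The part of free RNA and of doublets in this difference was not tested.

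Whether the macrophage list differed depended on which members were summed. The whole list summed to 649, 504 and 594 CPM in NONO deltaER and 1134, 855 and 1146 CPM in NONO Leydig cells, without overlap, and all 17 markers had some UMI. The genotypes did not overlap for Aif1, which had 260, 281 and 256 CPM in NONO deltaER and 623, 395 and 812 CPM in NONO, and whose highest level was in round spermatids of steps 6-7, at 3943 CPM. Without Aif1 the list summed to 389, 223 and 338 CPM in NONO deltaER and 512, 460 and 334 CPM in NONO, with TC below TD and TF. Apoe made up most of that sum, and without Aif1 and Apoe it was 28.5, 37.2 and 54.98 CPM in NONO deltaER and 79.4, 124 and 153 CPM in NONO, again without overlap. None of these 15 genes was tested, and the sums without 1 or both genes were chosen after seeing the data. Cd74, which defines antigen-presenting cells, had 1, 0 and 0 UMI in NONO deltaER Leydig cells and 5, 6 and 22 UMI in NONO. The part of such cells in the result was not tested.

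**Figure D5:**
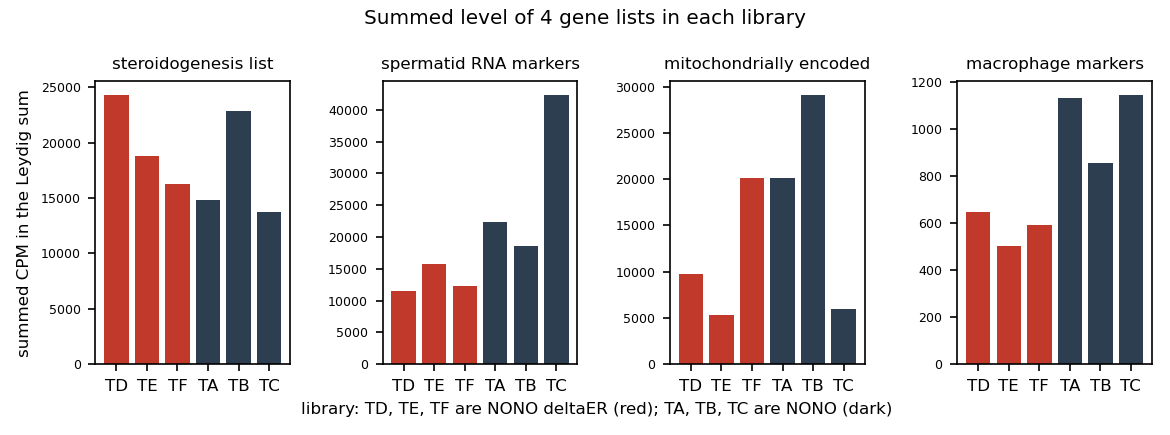
Summed CPM of 4 gene lists in the Leydig sums of libraries TD, TE and TF of NONO deltaER (red) and TA, TB and TC of NONO (dark), each panel with its own axis from 0. The steroidogenesis and mitochondrial lists overlap between the genotypes, while the spermatid list and the whole macrophage list are lower in all 3 NONO deltaER libraries. The macrophage list includes Aif1, which is highest in round spermatids, and overlaps without it.

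Mitochondrially encoded transcripts split the libraries across the genotypes. Their sum was 9718, 5345 and 20141 CPM in TD, TE and TF, and 20117, 29106 and 6004 CPM in TA, TB and TC. TF, TA and TB were high and TD, TE and TC low. Sertoli cells showed this split as well, with 15633, 13281 and 21544 CPM in TD, TE and TF and 23025, 25905 and 13955 CPM in TA, TB and TC. In macrophages it was narrow, with TF at 7395 CPM and TE at 7020 CPM. Myoid cells did not show it, with 11888, 13743 and 12292 CPM in TD, TE and TF and 9815, 13057 and 7274 CPM in TA, TB and TC. Nor did the class Unknown, where TD and TE were highest, at 10310.5 and 9009 CPM. The sets below are those of Leydig cells, drawn from their mitochondrial sums given above. In the high set NONO deltaER has only TF, and in the low set NONO has only TC. Orders within a set therefore cannot tell the genotype from a single library. All 12 tested genes of the list had a log2 fold change below 0 in Leydig cells (median -0.77), 0 passed, and the genotypes overlapped for each. Within the high set the spermatid sum was lower in TF than in TA and TB, and within the low set lower in TD and TE than in TC. Within the high set TF had a Leydig share of 1.92% against 2.099% in TA and 1.46% in TB, and within the low set TD and TE were below TC.

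Nuclear genes of oxidative phosphorylation summed to 5185, 4416 and 4016 CPM in TD, TE and TF and 4209, 4982 and 3356 CPM in TA, TB and TC, so that TF, TA and TB lay among the other libraries. Of 26 tested, 21 were above 0 (median 0.15), and 0 passed. Genes of detoxification and redox defence had 17 of 23 above 0 (median 0.21), among them Gstm1, with 12285, 9125 and 5484 CPM in NONO deltaER and 5901, 8991 and 6553 CPM in NONO. Endoplasmic reticulum chaperones had 14 of 21 above 0 (median 0.12), while 16 of 20 immediate-early and dissociation stress genes were below 0 (median -0.13). The interferon list had 4 of 7 above 0, and the clock list 4 of 9, and no gene of these lists passed.

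Restricted to the 410 Leydig cells with under 1% spermatid RNA, the levels of 3 steroid genes varied less between libraries relative to their mean. The SD over the 6 libraries was 11.7% of the mean for Cyp17a1, 29.2% for Star and 8.63% for Hsd17b3, against 25.3%, 41.7% and 23.3% over all Leydig cells. For Star the SD itself was no smaller, at 597 CPM against 572 CPM. This spread was computed for these 3 genes only, not for Cyp11a1, Hsd3b1, Hsd3b6 or Sult1e1, so it does not describe the pathway. Cyp17a1 had 5233, 5261 and 4974 CPM in TD, TE and TF, against 4290, 5584 and 6125 CPM in TA, TB and TC. Star had 2709, 2441 and 1516 CPM in NONO deltaER and 1136, 2276 and 2202 CPM in NONO. Hsd17b3 had 1182, 1113 and 1008 CPM in NONO deltaER, against 1103, 935 and 998 CPM in NONO. The genotypes overlapped for each of the 3. For Cyp17a1, TC was the highest library here, while over all Leydig cells it lay below the 3 NONO deltaER libraries. Prm2 had 172, 259 and 128 CPM in NONO deltaER and 210, 233 and 490 CPM in NONO, a level that the choice of these cells by spermatid markers keeps low. In these cells 0 of 3750 genes passed the test. This limit was chosen after seeing the data.

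The response of Leydig cells to the genotype was also set against that of other somatic classes within the same libraries, by limma on log2(CPM + 10). The difference of the response passed for 0 of 5620 genes against Sertoli cells (0%), 0 of 3353 against myoid cells (0%) and 0 of 3251 against the class Unknown (0%). The lowest adjusted p were 0.387, 0.864 and 0.0981, and 257, 124 and 307 genes had an unadjusted p under 0.05. No gene is shown to respond in Leydig cells otherwise than in these classes.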

How the data were processed

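The data are single-cell RNA sequencing of adult mouse testis. Cell Ranger 2.1.1 and mm10 are named in the submitters' processing notes; for the annotation version, cell filters, doublet treatment and clustering nothing is given in the sources used. The authors deposited raw UMI counts, whole and not normalized, for 25771 genes and 46495 cells, and the deposited cell table gives library, group, classes and the mitochondrial percent of each cell. In the values every cell had at least 500 UMI, and the mitochondrial percent did not exceed 5.00. The table does not tie libraries to numbered samples, so libraries keep their letters.

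UMI of the Leydig class were summed per library, since cells are not replicates. The comparison of NONO deltaER with NONO used edgeR 4.0.16 (TMM, filterByExpr, robust quasi-likelihood fit, Benjamini-Hochberg adjustment over all genes tested, threshold 0.05). DESeq2 1.42.0 was an alternative, and limma 3.58.1 compared responses between classes on log2(CPM + 10). The edgeR script was tested on simulated counts with the same spread set for all genes. Such counts check the working of the script, and not its power or its false calls in these data. Shares and medians were compared by exact permutation tests (scipy 1.17.1). Sums per library, 188392 to 566841 UMI, limit the genes that can be tested. A count of 3 UMI was taken as the floor of detection. No doublet caller was run; instead alternatives left out the 5% of Leydig cells with most UMI and the 10% with most markers of other cells.

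Class genes are the 25 with the largest ratio to the next class among genes of at least 100 CPM. Genes named between genotypes are the 12 per direction with the lowest p among genes of at least 100 CPM whose libraries did not overlap. In addition the values of C3, Junos, Gm614 and 1700001O22Rik were looked at after the results were seen. The class, its markers and the 27 gene lists were chosen with earlier results of these data known. Coordinates are of mm10, GENCODE M21; promoter windows are from RefSeq, GRCm38.p6.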

Additional observations from a re-analysis of the deposited data

How the results depend on the processing

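No paired analysis was possible because the libraries carry letters and no replicate number. With the set of libraries high or low in mitochondrial transcripts of Leydig cells as a covariate in edgeR, 0 genes passed and 223 had an unadjusted p under 0.05. The count of genes past the threshold between genotypes, 0 by the edgeR test, was 1 with DESeq2 (Prm2, adjusted p 0.00609) and 9 with no filter on low counts, all 9 lower in NONO deltaER, among them Prm1, Prm2 and Cd74. Leaving out 1 library at a time gave 0 to 2 calls, the 2 being Gm614 and 1700001O22Rik without TB. Cells with UMI of at least 3 of the 5 steroidogenic genes, a limit chosen after seeing the data, gave 5 calls, all lower and all higher in spermatids than in Leydig cells, with Spata18 among them. With a pseudocount of 50 the difference in response passed for 1 gene against Sertoli cells (Prm2) and 8 against the class Unknown, with Prm1, Prm2 and Tnp2 among them. The cause was not tested. Leaving out the 5% of Leydig cells with most UMI, or the 10% with most markers of other cells, gave 0 calls. The difference in the Leydig share of all cells was -0.71 to -0.19 points without 1 library (-0.71 without TB, -0.19 without TE, -0.21 without TC) and -0.16 where only cells with 3 of the 5 genes count as Leydig. That in the share of somatic cells was -7.91 to -2.74 points without 1 library (lowest in size without TC), -2.37 with that count of cells and -8.42 without the class Unknown. The difference in median UMI was -574 to -234 without 1 library, and that in median genes -225 to -70.8, both smallest in size without TA. No result reversed, and for the 24 named genes 398 values under other settings kept their direction and side of the threshold and 8 passed it. The sums of the class limit what can be seen, and a p that misses the threshold does not show that levels were equal.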

Other observations

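Some genes with low levels stood apart without passing the test. C3, a complement component, had 47.5, 47.8 and 96.2 CPM in NONO deltaER Leydig cells, against 29.99, 26.1 and 10.3 CPM in NONO Leydig cells, a log2 fold change of 1.51 ± 0.46 (edgeR adjusted p = 0.654). Junos, a non-coding transcript, had 38.0, 37.2 and 57.7 CPM in NONO deltaER and 15.9, 3.26 and 10.3 CPM in NONO, a log2 fold change of 2.03 ± 0.54 (edgeR adjusted p = 0.478). Without strand in the counting known, reads of Junos and of its neighbour Jun may not be told apart. Gm614 had the lowest p of the table, with 25.3, 31.8 and 19.2 CPM in NONO deltaER and 108, 97.9 and 132 CPM in NONO (log2 fold change -2.18 ± 0.40, edgeR adjusted p = 0.244), and its level in germ cells reached 1219 CPM. These genes were chosen after their values were seen.

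Zc3h7a, a gene named for its zinc fingers and also chosen after its values were seen, had 61255, 35548 and 18552 CPM in NONO deltaER and 26059, 31228 and 24483 CPM in NONO. Elongated spermatids had 112225 CPM. Within the Leydig class it stood at 43177 CPM in the 410 cells with under 1% spermatid RNA and at 17696 CPM in the other 434 cells.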
